A study of Homo sapiens with 4 samples.

Results

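The genes described here are 30 small nucleolar RNA (snoRNA) host genes of human embryonic stem cells, chosen by symbol from a list of noncoding hosts, 26 of them with SNHG symbols together with GAS5, ZFAS1, EPB41L4A-AS1 and DANCR. They were 30 of 62218 genes in the annotation joined to the counts, and all 30 were among the 27633 genes with enough counts to be tested. The libraries were Nanopore cDNA libraries from total RNA of the wild-type (WT) human embryonic stem cell line H1, 2 from naïve cells grown in the FINE culture condition and 2 from primed cells grown in mTeSR medium, here called naïve 1, naïve 2, primed 1 and primed 2. The naïve cells were derived from the primed H1 cells, so both states share 1 genetic background, and state and culture medium cannot be told apart. Nothing in the labels says that the replicates came from separate cultures, so the p-values measure only the spread between libraries, which may be technical.

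A snoRNA host gene is transcribed as a spliced RNA whose introns carry snoRNAs, and the snoRNA is cut from the excised intron and protected there by its proteins. Box C/D snoRNAs guide the methylation of ribose in ribosomal RNA and box H/ACA snoRNAs guide the conversion of uridine to pseudouridine, while the related scaRNAs act on spliceosomal RNAs. Many noncoding hosts carry a pyrimidine-rich start like that of ribosomal protein genes, and their spliced RNAs are often degraded by nonsense-mediated decay, so that the level of the spliced RNA and the output of snoRNA need not move together. The libraries count alignments over whole transcript spans and were not made from small RNA, so mature snoRNAs were not measured here.

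The count files held 129276054 to 161548901 counts per library, and the gene-level table, in which a gene takes the count of whichever isoform had the highest mean over the libraries, held 23489358 to 30936883. Levels are given below as CPM, the count in a gene-level library scaled to 1000000 counts after TMM, which allows for a difference in composition between libraries. Markers of the naïve state were lower in primed cells for 8 of 8 listed genes and markers of the primed state higher for 8 of 8, although KLF17, listed as naïve, differed by only -0.41 on the log2 scale and was not called with library sizes in place of TMM. Trophoblast markers summed to 2000 to 2347 CPM in naïve and 3.59 to 4.59 CPM in primed libraries, with 7 of 8 called lower in primed and S100P and VGLL1 at 0 counts in both primed libraries. Fibroblast markers summed to 2.63 to 3.65 CPM in naïve and 58.1 to 60.1 CPM in primed libraries, 3 of 4 tested being called higher, with DCN at 0 to 1 counts in every library. Most of the primed sum was COL1A1 (mean 35.3 CPM) and COL1A2 (21.9 CPM), and COL3A1 was not called (log2 fold change 0.28). The part of these markers in the results below was not tested, and fewer cells of a type and less RNA per cell cannot be told apart in such bulk libraries.

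The sequences on which the snoRNA results turn are 4 box C/D snoRNAs of SNHG1 and 1 box H/ACA snoRNA each from SNHG8 and DANCR. Of the 4, SNORD27, SNORD28 and SNORD30 had the largest naïve over primed ratios of the share of host alignments in these hosts. SNORD25 had most counts in SNHG1. The sequences are from GENCODE 44 on GRCh38, written 5′ to 3′ as DNA. Capitals mark a TGATGA in the first 25 bases (the C box motif) and the last CTGA in the final 25 bases (the D box motif) of box C/D snoRNAs, and an ACA in the last 10 bases of box H/ACA snoRNAs. In SNORD28 no TGATGA was found in that window.
SNORD25, chr11:62855564-62855632, minus strand: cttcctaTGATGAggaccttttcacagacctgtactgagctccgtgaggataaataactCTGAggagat
SNORD27, chr11:62855012-62855083, minus strand: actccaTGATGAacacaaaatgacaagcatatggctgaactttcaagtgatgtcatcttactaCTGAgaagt
SNORD28, chr11:62854621-62854695, minus strand: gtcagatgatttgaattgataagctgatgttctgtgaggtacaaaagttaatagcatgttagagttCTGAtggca
SNORD30, chr11:62853663-62853732, minus strand: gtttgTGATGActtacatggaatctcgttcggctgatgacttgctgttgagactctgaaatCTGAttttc
SNORA24, chr4:118279190-118279320, plus strand: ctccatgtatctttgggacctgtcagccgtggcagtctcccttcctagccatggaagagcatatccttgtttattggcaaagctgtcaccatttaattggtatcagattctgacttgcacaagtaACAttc
SNORA26, chr4:52713249-52713370, plus strand: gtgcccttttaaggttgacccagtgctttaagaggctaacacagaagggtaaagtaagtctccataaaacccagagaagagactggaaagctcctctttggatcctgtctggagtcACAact

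Among the 30 host genes, 5 were called higher in primed cells and 21 lower, and SNHG7, SNHG11, SNHG16 and SNHG26 were not called (edgeR quasi-likelihood test with Benjamini-Hochberg adjustment over all genes, adjusted p under 0.05, two-sided). Most genes differed between the states, with 70.0% of all genes tested called in either direction, 37.4% higher and 32.6% lower. The median log2 fold change of the host genes was -0.62, against 0.08 for all genes tested. The number of hosts called depended on scaling. With library sizes in place of TMM, the median of all genes moved to 0.72, the median of the hosts to 0.02, and 11 hosts were called higher and 9 lower, against 56.2% and 16.3% of all genes tested. The 14 calls described next did not depend on that choice.

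**Figure D1:**
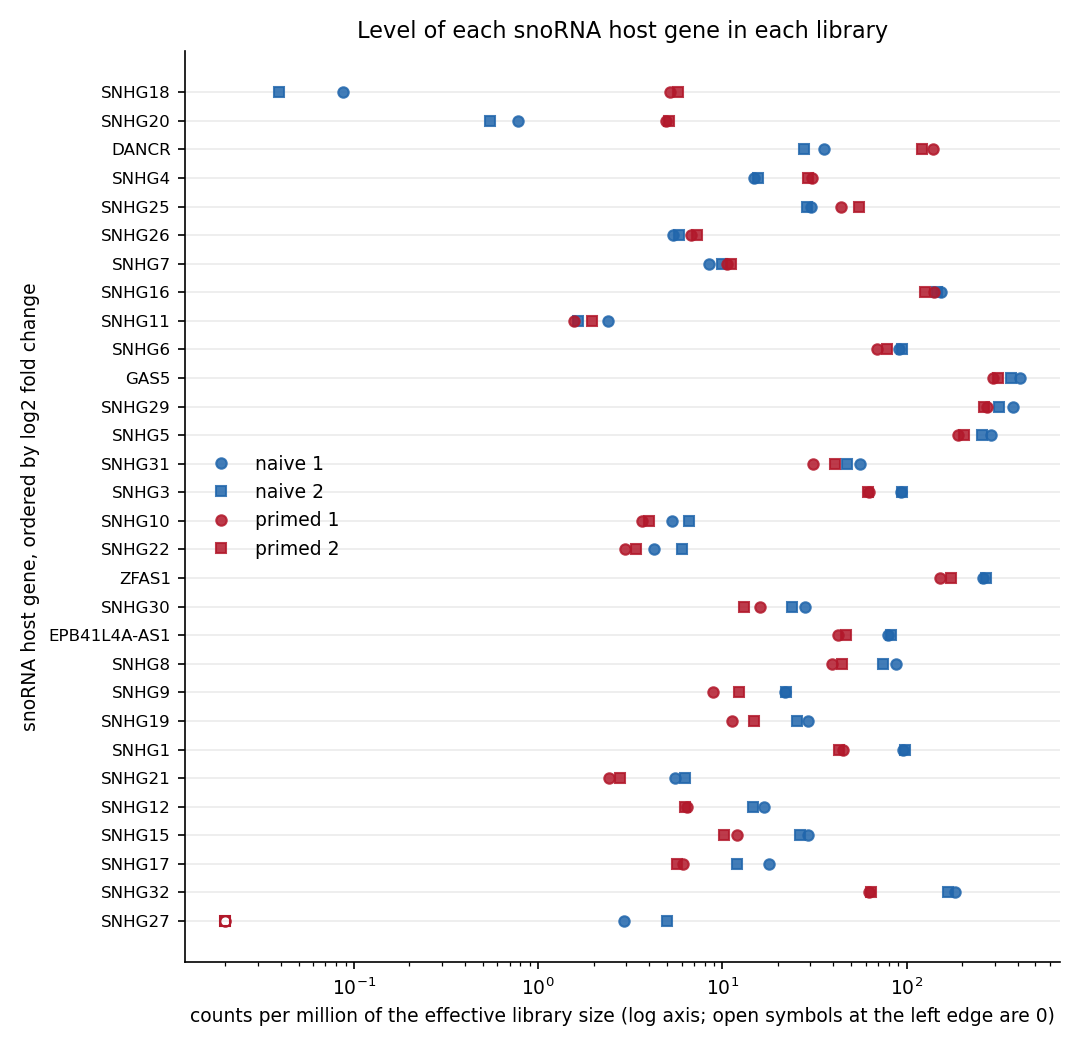
CPM (log axis) of the 30 host genes in the 4 libraries, blue for naïve and red for primed, circles for replicate 1 and squares for replicate 2, ordered by log2 fold change; open symbols at the left edge are 0. SNHG18, SNHG20, DANCR, SNHG4 and SNHG25 lie to the right in primed cells, SNHG27 was at 0 in both primed libraries, and the replicates of a state lie close together for most hosts.

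SNHG4, SNHG18, SNHG20, SNHG25 and DANCR were higher in primed cells under TMM, DESeq2 and library-size scaling and whenever a library left out still allowed the gene to be tested. The 5 genes host 7 distinct snoRNA or scaRNA loci and lie on 3 chromosomes.

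DANCR, first described as a noncoding RNA that holds back differentiation and host of SNORA26, was counted over chr4:52712501-52723623, plus strand. Naïve cells gave 819 and 705 counts and primed cells 4072 and 3705, or 35.5 and 27.7 CPM against 138 and 121. Both primed libraries lay far above both naïve libraries, with a log2 fold change of 2.04 (SE 0.20, adjusted p = 1.8e-15 in edgeR). The span also holds an unnamed antisense lncRNA, ENSG00000286161, whose count was 818, 705, 4072 and 3705, and since strand was ignored in the counting the pair cannot be told apart. A transcript of LINC01618, a lncRNA on the same strand whose longer span contains that of DANCR, had 980, 885, 4671 and 4282 counts, more than DANCR in each library. The short isoform DANCR-207, which ends before most of that span, had 806, 690, 3994 and 3613 counts, so nearly all of the alignments reached it.

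SNHG18, the host of SNORD123 on chromosome 5, had 2 and 1 counts in naïve cells against 152 and 175 in primed cells. It was near the floor of detection in both naïve libraries, and the ratio of its summed counts per effective library size was 88.1 (95% exact counting interval 29.9 to 429). SNHG20, the host of SCARNA16 on chromosome 17, had 18 and 14 counts against 146 and 158, a log2 fold change of 2.93 (SE 0.15, adjusted p = 6.7e-12). Both are low hosts, with 4.96 to 5.71 CPM in the primed libraries. No transcript of another gene overlapped the span taken for SNHG18, whereas that of SNHG20 lies in part under SEC14L1 on the same strand.

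SNHG4, on chromosome 5, which hosts SNORA74A and SNORA74D, rose from 342 and 399 counts in naïve cells to 900 and 894 in primed cells (14.8 and 15.7 against 30.6 and 29.2 CPM). Its log2 fold change was 0.97 (SE 0.05, adjusted p = 4.7e-07). Its span lies within that of MATR3 on the same strand and meets SIL1 on the other, and the largest counts of a transcript of MATR3 were 2583, 3110, 3739 and 3547, so alignments to these genes may be among those of SNHG4. SNHG25, a short host of SNORD104 and SNORA50C on chromosome 17, had 701 and 734 counts against 1299 and 1688, a log2 fold change of 0.75 (SE 0.16, adjusted p = 3.1e-05). Its span overlapped no other gene that is not a small RNA, and the primed libraries were both above the naïve ones but differed from each other more than the naïve libraries did.

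SNHG1, SNHG9, SNHG12, SNHG15, SNHG17, SNHG19, SNHG21, SNHG27 and SNHG32 were called lower in primed cells in all settings that tested them, library-size scaling included. The calls also held with each library left out in turn, except that SNHG27 was not tested when either naïve library was left out. These 9 hosts are on 8 chromosomes. SNHG9 and SNHG19, both short genes on chromosome 16, have no other gene in their spans, and neither do SNHG1, SNHG15 and SNHG17.

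SNHG27, the host of SNORA70 on chromosome 4, had 67 and 127 counts in naïve cells and none in either primed library. With a floor of 3 counts per library this is at least 39.5-fold lower in primed cells. It was the only host with no count in a library. Its naïve libraries differed from each other by more than those of most hosts, at 2.91 and 4.98 CPM.

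SNHG32, counted over chr6:31834608-31839761, plus strand, and host of SNORD48 and SNORD52, which are often used as reference RNAs in qPCR, fell from 4220 and 4251 counts to 1838 and 1965. At 183 and 167 CPM against 62.5 and 64.1, its log2 fold change was -1.47 (SE 0.07, adjusted p = 4.3e-12). It was the strongest fall among hosts with over 100 CPM in the naïve libraries, and with library sizes it was -0.82. A lncRNA on the same strand, ENSG00000285565, spans the locus and had 4479, 4562, 1937 and 2047 counts.

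SNHG1, the host of 7 annotated box C/D snoRNA genes and known as the U22 host gene, was counted over chr11:62851978-62855922, minus strand. Its counts were 2207 and 2483 in naïve cells and 1325 and 1313 in primed cells (95.8 and 97.4 against 45.0 and 42.9 CPM), a log2 fold change of -1.14 (SE 0.04, adjusted p = 3.8e-09). The replicates of each state were nearly equal. Without the alignments over SNORD25, the snoRNA of this host with most counts, SNHG1 had 66.8 and 64.1 CPM against 38.9 and 37.5, a log2 ratio of -0.78 in place of -1.14.

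The other hosts of this group were lower by similar amounts. SNHG12, the host of SNORA61, SNORA44, SNORA16A and SNORD99, had 386, 375, 188 and 193 counts in naïve 1, naïve 2, primed 1 and primed 2 (log2 fold change -1.31). SNHG15, whose SNORA9 overlaps an exon of the isoform counted, had 675, 675, 352 and 312 counts (-1.33). SNHG17, the host of the SNORA71 family, had 411, 306, 180 and 173 (-1.34). SNHG9, the host of SNORA78, had 502, 561, 261 and 375 counts (-1.05), and SNHG19, the host of SNORD60, 668, 646, 331 and 452 (-1.06), so that in both the primed replicates differed but stayed below each naïve library. SNHG21, the host of SCARNA15, was low, with 128, 160, 71 and 85 counts (-1.19), and its span meets FSD2 on the other strand. It also overlaps a lncRNA on the same strand, ENSG00000252690, with 127, 153, 69 and 83 counts, so these 2 cannot be told apart.

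A further 12 hosts were called lower with TMM but not with library sizes: SNHG3, SNHG5, SNHG6, SNHG8, SNHG10, SNHG22, SNHG29, SNHG30, SNHG31, GAS5, ZFAS1 and EPB41L4A-AS1. Their log2 fold changes ran from -0.94 in SNHG8 to -0.33 in SNHG6 with TMM, and DESeq2, with its own size factors, called all 12. With library sizes, SNHG3 (0.04), SNHG5 (0.18), SNHG6 (0.31), SNHG29 (0.27), SNHG31 (0.12) and GAS5 (0.28) turned positive, and SNHG6, SNHG29 and GAS5 were called higher.

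GAS5, known for its growth arrest-specific expression and as a decoy of the glucocorticoid receptor, had 9506 and 9386 counts in naïve cells against 8702 and 9546 in primed cells. The raw counts overlapped between the states and the fold change came from scaling (413 and 368 against 296 and 312 CPM, log2 fold change -0.36, adjusted p = 0.02). SNHG29, earlier named after its overlap with LRRC75A, had 8667, 8120, 8039 and 8042 counts and a log2 fold change of -0.37 (adjusted p = 0.017), its primed counts lying just below both naïve counts before scaling. GAS5 spans GAS5-AS1 and SNHG29 spans a transcript of LRRC75A, both on the other strand, and the counts of these equalled 94.7% and 94.5% of those of the hosts. The remaining counts were 550, 597, 405 and 423 in GAS5 (log2 ratio -0.78) and 557, 645, 285 and 336 in SNHG29 (-1.26). They were lower in both primed libraries before scaling, but these libraries also had smaller gene-level totals. No snoRNA inside GAS5 was among those analysed here.

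The other high hosts of this group were ZFAS1, with 5961, 6870, 4476 and 5306 counts (log2 fold change -0.70) and the SNORD12 family in its introns, SNHG5, with 6574, 6534, 5555 and 6286 (-0.46), and SNHG3, the host of SNORA73A and SNORA73B, with 2159, 2398, 1842 and 1880 (-0.60). SNORA73 is the U17 snoRNA, which acts in the cleavage of the precursor of 18S ribosomal RNA. SNHG6 on chromosome 8 had 2101, 2415, 2037 and 2402 counts (-0.33), SNHG8 2006, 1891, 1161 and 1372 (-0.94), and EPB41L4A-AS1 1822, 2086, 1242 and 1440 (-0.85). In SNHG8 and EPB41L4A-AS1 the primed counts were below each naïve count before scaling. In SNHG6 1 primed count lay below both naïve counts and the other between them. The primed libraries had smaller gene-level totals, and with library sizes SNHG8 (-0.29) and EPB41L4A-AS1 (-0.21) were not called. SNHG30 had 648, 611, 469 and 402 counts (-0.84), SNHG10 123, 168, 107 and 123 (-0.64) and SNHG22 98, 153, 87 and 104 (-0.69). Other genes overlap several of these spans, and strand was ignored. A transcript of EPB41L4A, opposite EPB41L4A-AS1, had 1829, 2098, 1289 and 1484 counts, so the pair cannot be told apart. On the same strand, RCC1 overlaps SNHG3 (2639, 2812, 2466 and 2451 counts) and ENSG00000271793 overlaps SNHG5 (7863, 8242, 6989 and 7675). MCMDC2, opposite SNHG6, had 1912, 2126, 1937 and 2290.

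In SNHG31 and SNHG22 much of the count lay over a transcript of another gene within the span. SNHG31, counted over chr2:214810209-214963575, had 1280, 1215, 912 and 1259 counts (log2 fold change -0.52), but RPL10P6, a processed pseudogene of a ribosomal protein gene on the same strand within that span, had 1130, 1062, 622 and 969 of them. The remaining 150, 153, 290 and 290 counts were 6.51 and 6.003 CPM in naïve cells against 9.86 and 9.47 in primed cells, a log2 ratio of 0.63, so the fall of SNHG31 was that of the alignments over the pseudogene. In SNHG22 the transcript MYO5B-207, on the other strand, held 56, 97, 40 and 34 counts, or 51.4% of the mean count of the host. Without the alignments over MYO5B-207 the host had 42, 56, 47 and 70 counts and a log2 ratio of -0.05. Strand was ignored in the counting, so the alignments over MYO5B-207 may be of either gene.

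Several of the weaker calls were also lost when 1 library was left out. Such a fit has 1 library in a state and less power, so a lost call need not rest on the library left out. Without primed 1, SNHG5 (log2 fold change -0.23), SNHG6 (-0.08), SNHG10 (-0.41), SNHG22 (-0.43), SNHG29 (-0.24), SNHG31 (-0.16) and GAS5 (-0.16) were no longer called, and without primed 2, SNHG5 (-0.35), SNHG6 (-0.26), SNHG10 (-0.55), SNHG22 (-0.63), SNHG29 (-0.18) and GAS5 (-0.23) were not. Without naïve 1, SNHG29 (-0.31) and GAS5 (-0.34) lost their call, and without naïve 2, SNHG6 (-0.36), SNHG10 (-0.54) and SNHG22 (-0.48) did. These 7 hosts kept their direction each time.

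**Figure D2:**
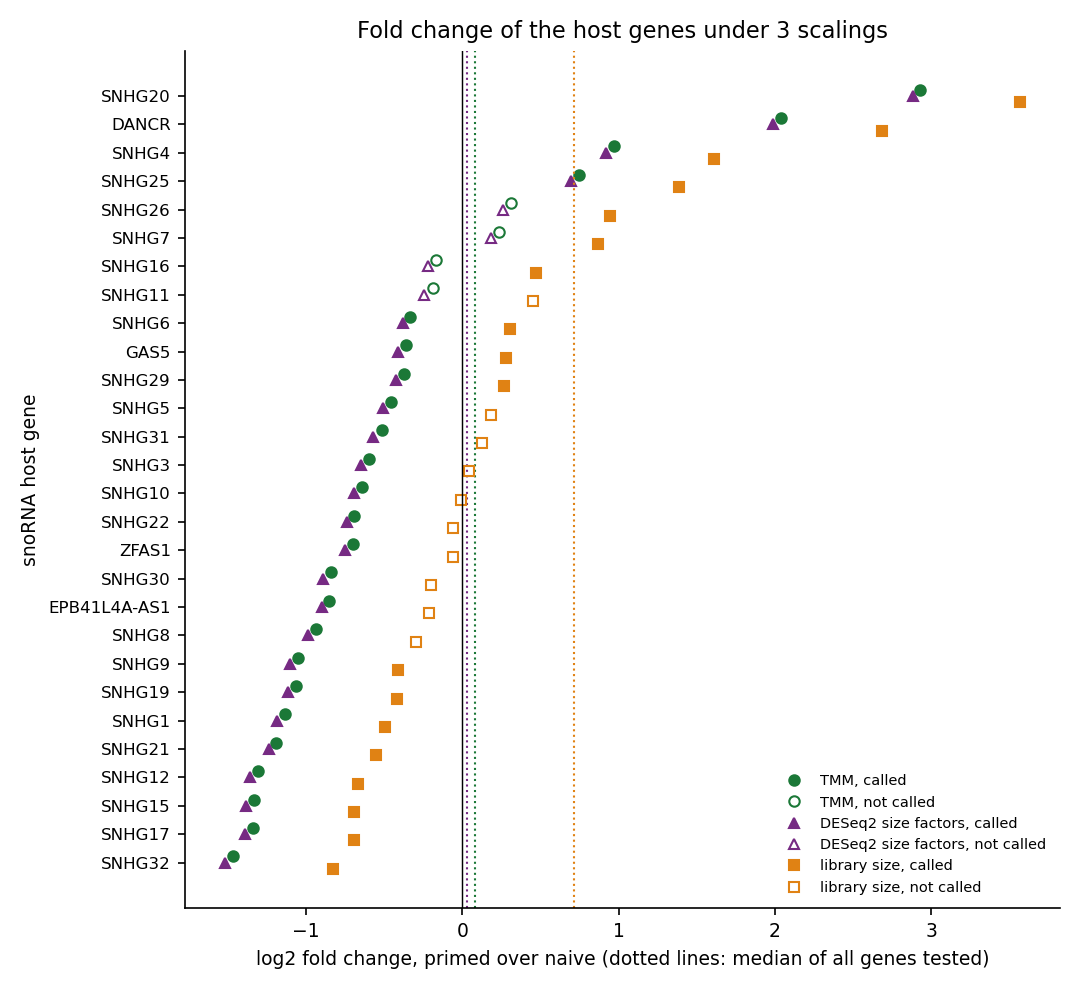
Log2 fold change of primed over naïve for 28 hosts with TMM (green circles), DESeq2 size factors (purple triangles) and library sizes (orange squares), filled where called at an adjusted p under 0.05; dotted lines give the median of all genes tested with each, and SNHG18 and SNHG27 are left out for scale. TMM and DESeq2 lie close together, library sizes move each host to the right by a like amount, and 8 of the hosts shown stay left of 0 and called with each scaling.

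The 4 hosts that were not called with TMM were SNHG16, SNHG7, SNHG26 and SNHG11. SNHG16, the host of SNORD1A, SNORD1B and SNORD1C, had 3556 and 3721 counts in naïve cells against 4159 and 3860 in primed cells (log2 fold change -0.17, SE 0.09, adjusted p = 0.29 in edgeR). SNHG7 had 196, 254, 313 and 339 counts (0.23, adjusted p = 0.23) and SNHG26 125, 149, 198 and 222 (0.31, adjusted p = 0.15). With library sizes SNHG16, SNHG7 and SNHG26 were called higher. A transcript of DIPK1B, opposite SNHG7, had 194, 241, 325 and 346 counts, so with strand ignored the pair cannot be told apart. A transcript of ENSG00000284526, opposite SNHG16, had 2058, 2145, 3523 and 3184 counts, some of which may be among those of SNHG16. SNHG11, with 55, 42, 46 and 60 counts (-0.19, adjusted p = 0.57), was low and its states overlapped, and its sign changed without naïve 1 (0.04), without primed 1 (0.13) and with library sizes (0.45), where it was not called.

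Per kilobase of exonic length, the level was highest in SNHG29 in both states, at 607 CPM per kb in naïve and 468 in primed cells, followed by GAS5 at 364 and 284. In naïve cells SNHG5 (206 CPM per kb) and SNHG32 (166) came next, whereas in primed cells SNHG25 (160) lay above SNHG5 (150) and SNHG32 (60.1). The counts cover introns and any gene within the span, and the divisor is the exonic length of the isoform taken. That length was 572 bases for SNHG29 and 4526 for ZFAS1, so the order can depend on the isoform taken. These levels are therefore not estimates of the spliced RNA.

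The share of a host's alignments that covered a hosted snoRNA was then examined, since this share is taken within a library and is free of the scaling between libraries. In 29 of the hosts, 60 annotated snoRNA or scaRNA genes lie inside the host isoform on the same strand, and 46 of these in 21 hosts had enough counts to be tested (edgeR diffSpliceDGE on alignments over the snoRNA against alignments of the host that miss it, adjusted over all 254 snoRNAs tested in 122 hosts). The share was lower in primed cells for 25, higher for 1 and not called for 20. Over all snoRNAs tested, 57.5% were called lower and 5.51% higher, so the hosts described here were near the background in this respect. The median ratio of the naïve over the primed share was 2.12 in these hosts and 2.30 over all hosts. Some annotated snoRNA genes duplicate one another and had the same counts, which leaves 42 tested loci with distinct counts, 24 of them lower. Loci within a host share its count and are not independent. By host, 13 of the 21 tested had a snoRNA called lower, and in 10 of them all those tested were.

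SNHG1 had the largest changes. Over SNORD27, shown above, the share of SNHG1 alignments was 24.0% and 29.8% in naïve cells against 1.89% and 1.83% in primed cells, and over SNORD28 it was 23.8% and 29.9% against 1.96% and 1.75%. The share fell 14.5-fold over each (adjusted p = 1.7e-60 in edgeR for both). Over SNORD30 it was 16.0% and 19.7% against 1.43% and 0.762%, a ratio of 16.3, which ranked 8 among the 254 snoRNAs tested. The naïve and primed shares of each were far apart, and the 95% Wilson interval, which covers counting error only, was 22.2% to 25.8% for SNORD27 in naïve 1 and 1.28% to 2.77% in primed 1.

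SNORD26 (22.9% and 27.7% against 2.26% and 2.44%) and the SNORD22 copy nearer the 5′ end (22.3% and 27.8% against 3.40% and 2.67%) fell in the same way. At the ends of the gene the primed share was higher. SNORD25, nearest the 5′ end, had 30.3% and 34.2% against 13.7% and 12.4%, a ratio of 2.47, and the SNORD22 copy nearest the 3′ end had 25.3% and 30.5% against 6.34% and 5.94%. The naïve replicates differed from each other by 3.74 to 6.09 percentage points over the 7 snoRNAs, with naïve 2 above naïve 1 at each. Of the 74 annotated SNHG1 isoforms, 16 have an exon that overlaps SNORD27 at least in part, and 16 have one that so overlaps SNORD28. The alignments over a snoRNA can be of such isoforms or of RNA from which the intron was not yet removed.

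**Figure D3:**
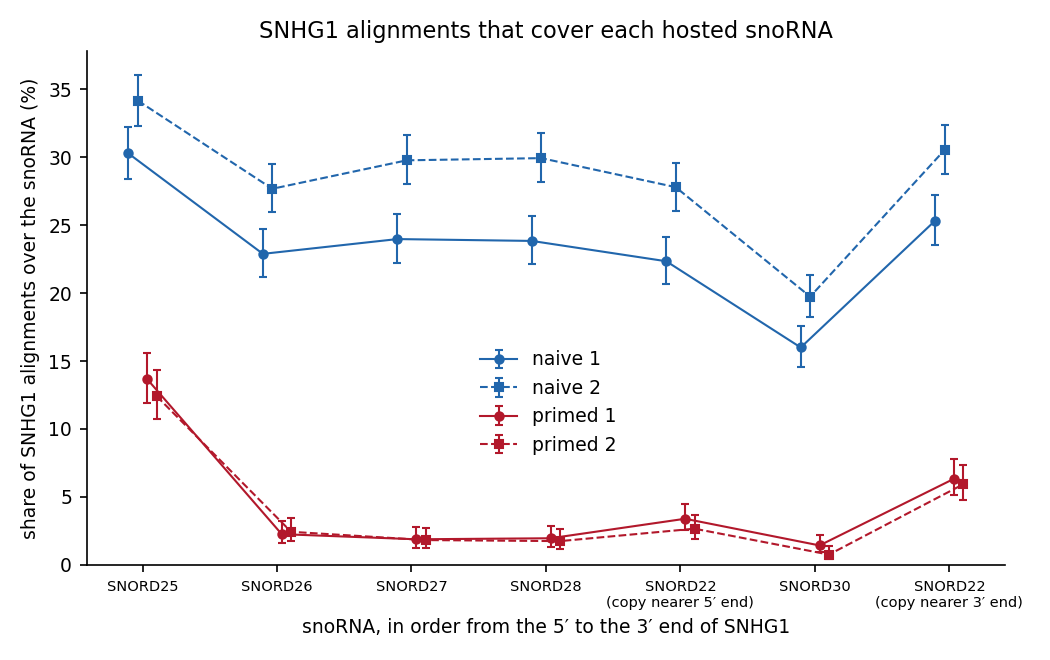
Share of SNHG1 alignments over each of its 7 hosted snoRNAs, in percent, in order from the 5′ to the 3′ end, for the 4 libraries (blue naïve, red primed; circles and full lines replicate 1, squares and dashed lines replicate 2), with 95% Wilson intervals. The naïve libraries lie between 16.0% and 34.2% throughout, whereas the primed libraries drop to 2.44% or less over SNORD26, SNORD27, SNORD28 and SNORD30.

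Large changes in share were also found over snoRNAs of other hosts. Over SNORA24 in SNHG8 the share was 8.92% and 10.7% against 1.29% and 1.17% (ratio 8.0, adjusted p = 5.4e-23). Over SNORA74D in SNHG4 it was 11.7% and 12.5% against 2.78% and 1.34% (ratio 5.88), while that of SNORA74A in the same host, 2.63% and 2.26% against 2.11% and 1.90%, was not called. Over SNORA26 in DANCR it was 5.86% and 5.25% against 1.74% and 1.54% (ratio 3.38, adjusted p = 2.5e-09), although DANCR itself was higher in primed cells. SNHG4 and DANCR thus had more host alignments and a smaller share over a snoRNA, and the counts over SNORA26 were 48 and 37 against 71 and 57. SNORD1C in SNHG16, with a ratio of 14.4, rests on 26 and 38 counts against 4 and 1.

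Among the snoRNAs with most counts in other hosts, some were called lower and some were not called. SNORD49B in SNHG29 had a share of 16.2% and 16.6% against 11.8% and 11.6% (ratio 1.40, adjusted p = 7.2e-04), SNORD104 in SNHG25 17.8% and 14.7% against 8.01% and 8.29%, and SNORA73B in SNHG3 5.42% and 5.92% against 1.09% and 1.81%. SNORA9 in SNHG15 (14.4% and 13.8% against 3.12% and 4.17%) and SCARNA17 in SNHG22 (36.7% and 28.8% against 9.20% and 11.5%) were called lower too. SNORA61 in SNHG12 had 26.7% and 28.5% against 31.4% and 34.7% (adjusted p = 0.36), and SNORD52 in SNHG32 5.54% and 4.99% against 4.57% and 3.92% (adjusted p = 0.19). SNHG12 and SNHG32 were therefore lower in primed cells with no detectable change in these shares, unlike SNHG1, although the difference between the hosts was not tested.

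SNORA71B in SNHG17 was the only hosted snoRNA called higher, with 2.19% and 2.29% in the naïve libraries against 6.11% and 7.51% in the primed (adjusted p = 0.0024). It rests on 9 and 7 counts against 11 and 13, and only in the primed libraries were its counts high enough for testing. With either primed library left out SNORA71B was not tested, so those fits cannot show whether its call is stable. The members of the SNORA71 family are near-identical in part, so alignments over 1 of them may belong to another.

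**Figure D4:**
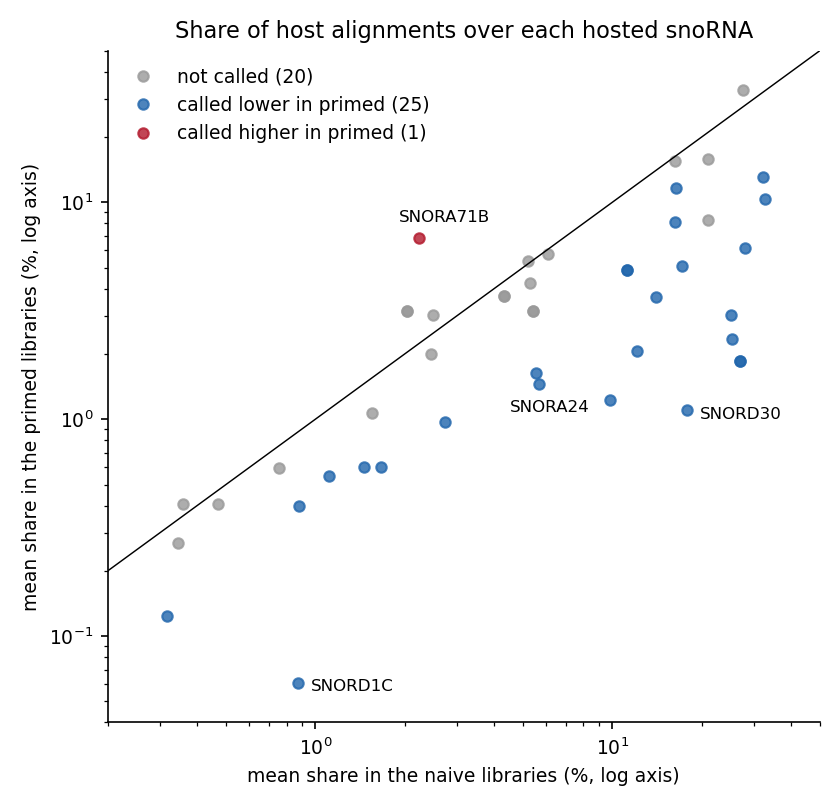
Mean share of host alignments over each of the 46 tested snoRNAs in the primed (vertical) against the naïve libraries (horizontal), in percent on log axes, coloured by call; the line marks equal shares. The 25 snoRNAs called lower lie below the line, SNORD30 farthest from it, and SNORA71B lies above it.

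Isoform usage, the subject of the study's comparison of naïve and primed cells, was not called for any isoform of these hosts. Of 673 isoforms tested, 0 passed an adjusted p under 0.05 with a change in isoform fraction (dIF) beyond 0.1 (edgeR diffSpliceDGE), against 0.566% of the 156972 isoforms over all genes. Of these, 5 had an unadjusted p under 0.05 and the smallest adjusted p was 0.103, for the shorter of the SNHG22 isoforms tested. Its fraction was 56.1% and 49.8% of its gene in naïve cells against 23.3% and 27.6% in primed cells, the largest change in isoform fraction. The test had little to work on, since alignments were counted for each transcript they overlap, and the 673 isoforms had only 244 distinct sets of counts. SNHG1 had 74 isoforms with 18 distinct sets, GAS5 78 with 14 and SNHG17 109 with 21.

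Promoter sequences of 300 bases (250 before and 50 from the annotated start on) were found for 26 of the 30 hosts in a RefSeq table on GRCh38.p14. A run of at least 8 C or T bases overlapping the 20 bases on either side of the start, on the strand of the gene, was found in 9 of 26 (34.6%), against 21.9% of 35116 promoters. The motif GGGCGG on either strand was found in 19 (73.1% against 45.0%), CACGTG on either strand in 2 (7.69% against 7.26%) and TATAAA on the strand of the gene in 2 (7.69% against 7.33%). The pyrimidine run began within 2 bases of the annotated start in SNHG4, SNHG12, SNHG18 and SNHG32, whose windows from 40 bases before to 50 bases after the start are shown with the run in capitals. SNHG4 and SNHG18 were higher in primed cells and SNHG12 and SNHG32 lower, so a run at the start was found among hosts of both directions.
SNHG4, chr5:139274061-139274150, plus strand: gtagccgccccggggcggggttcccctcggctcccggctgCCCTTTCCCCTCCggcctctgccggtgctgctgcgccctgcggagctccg
SNHG12, chr1:28581824-28581913, minus strand: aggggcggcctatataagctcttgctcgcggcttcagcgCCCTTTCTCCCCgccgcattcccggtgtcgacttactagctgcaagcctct
SNHG18, chr5:9546160-9546249, plus strand: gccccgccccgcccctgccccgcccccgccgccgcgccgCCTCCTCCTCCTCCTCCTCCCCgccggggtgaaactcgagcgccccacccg
SNHG32, chr6:31834876-31834965, plus strand: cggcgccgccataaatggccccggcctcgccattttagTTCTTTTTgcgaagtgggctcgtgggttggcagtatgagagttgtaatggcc

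The proteins that bind snoRNAs and the pathways that act on host RNAs were examined as lists. Their counts are to be read against the shares of all genes given above, 37.4% higher and 32.6% lower with TMM and 56.2% and 16.3% with library sizes. Of the 8 core proteins of snoRNA particles, 2 were higher and 5 lower in primed cells with TMM, and 3 higher and 2 lower with library sizes. SNU13, which binds the C/D motif, had 5397 and 5559 counts against 2415 and 2506 (log2 fold change -1.46), and NOP10 of the H/ACA particle 4753 and 4671 against 2246 and 2604 (-1.27). NOP56, a C/D core protein, was higher (0.56), as was DKC1, the pseudouridine synthase, with 3934 and 1581 against 22444 and 22963 counts (2.70, SE 0.73). The rise of DKC1 lies near its 3′ end. An isoform with a retained intron, at chrX:154775119-154776911, held 22207 and 22651 of the primed counts, whereas an isoform at chrX:154767016-154776260 had 449 and 538 counts against 781 and 734, a log2 ratio of 0.32.

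Of 12 snoRNP assembly factors, 2 were higher and 4 lower (PIH1D1 0.61 and RPAP3 0.37, PHAX -0.99 and TGS1 -0.77), which turned to 8 higher and 1 lower with library sizes. Of 14 genes of nonsense-mediated decay, 1 was higher (UPF3A, 0.69) and 8 lower, among them SMG1, the kinase of UPF1 (-1.11), and RBM8A of the exon junction complex (-1.02), and with library sizes 6 were higher and 2 lower. Of 16 regulators of mRNAs with a 5′ pyrimidine tract, LARP1, which binds the tract, was higher (0.32) and 7 were lower, EIF4G1 (-0.94) and PABPC1 (-0.93) the most, against 6 higher and 1 lower with library sizes. These lists thus had no direction that held under both scalings.

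Of 18 protein-coding snoRNA hosts, 0 were higher and 13 lower with TMM, with a median log2 fold change of -0.66, close to the -0.62 of the noncoding hosts. With library sizes 5 were higher and 4 lower. TAF1D, a host of several C/D snoRNAs, had 2643 and 3597 counts against 1081 and 1305 (-1.69), and HSPA9 2945 and 3310 against 1892 and 1726 (-1.09). NCL and HSPA8, with log2 fold changes of 0.12 and 0.02, were not called.

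**Figure D5:**
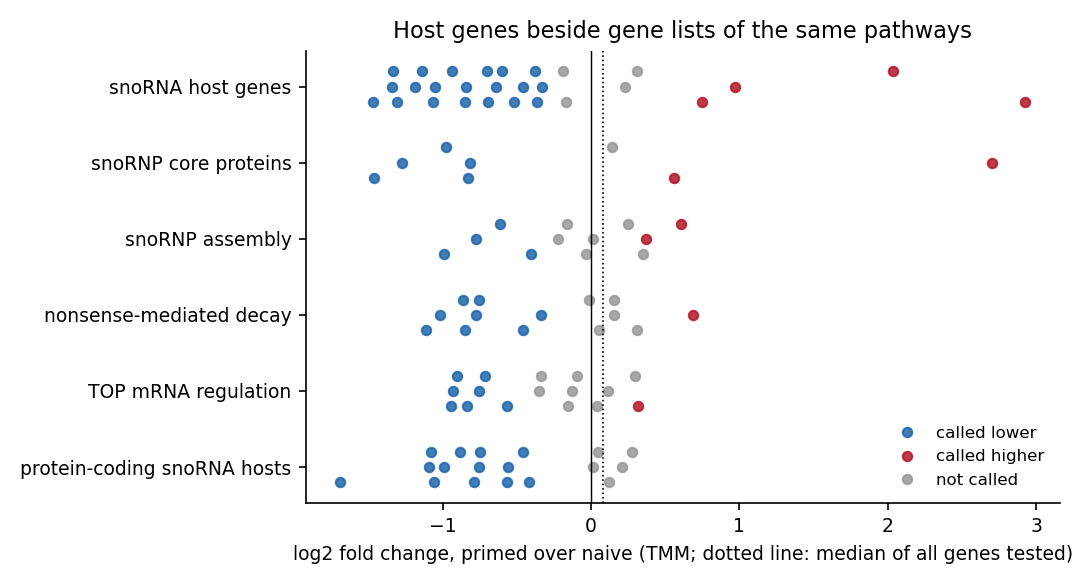
Log2 fold change of primed over naïve with TMM for 28 noncoding hosts (SNHG18 and SNHG27 are left out for scale) and for the genes of 5 lists, 1 point per gene, blue where called lower, red where called higher and grey where not called; the dotted line is the median of all genes tested, 0.08, and the vertical spread has no meaning. Most noncoding and protein-coding hosts lie left of 0, and DKC1 is the point at 2.70 among the snoRNP core proteins.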

How the data were processed

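Total RNA of naïve and primed H1 cells was sequenced by the authors as Nanopore cDNA, aligned to GRCh38 with minimap2 and counted with featureCounts 2.0.0 on the transcripts of Ensembl 105. The deposited values are raw counts of alignments over whole transcript spans, without strand, with every alignment of a read, and every transcript under it, counted, so they are not counts of molecules.

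Transcripts were joined by identifier to GENCODE 44 (242542 of 244825 matched, and 1.0% of counts were on the rest). The isoform with the highest mean count over the libraries stood for its gene. Genes with at least 10 counts in 2 libraries were tested with edgeR 4.0.16 in R 4.3.3 (TMM, quasi-likelihood, Benjamini-Hochberg over all genes, two-sided), all 4 libraries entering with the state as the term. Isoforms and snoRNA shares were tested with diffSpliceDGE. SEs are of the difference of mean log2(CPM + 0.5). A snoRNA count never exceeded that of its host in any of 612 pairs. Tests were tried on simulated data, where 100% of 4-fold and 74.0% of 2-fold gene changes among 26391 genes, 76.0% of 4-fold isoform changes among 14475 isoforms and 78.3% of 3-fold share changes among 254 pairs were recovered. The simulated isoforms came from genes with few isoforms, left out duplicate count sets and were drawn independently. That recovery does not carry over to the hosts, whose isoforms share alignments. The simulated shares had counting error only, with no further spread between libraries. Alternatives were other scaling, DESeq2 1.42.0, other filters, other isoform choices, a replicate block and leaving out each library. Figures were drawn with matplotlib 3.10.9 and tables handled with pandas 2.3.3.

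All hosts are named. Each pathway list and the list of protein-coding hosts contribute the 2 called genes that moved furthest up and down. The marker lists did not follow this rule, and that of shared pluripotency genes is not described. The hosted snoRNAs contribute the 3 called ones that moved furthest each way by ratio of shares, plus that with most counts of each host described. For NCL, HSPA8, KLF17, VGLL1, S100P, COL3A1 and DCN the values were seen before they were picked. The hosts, lists and tests were chosen with earlier results of these data known. Depth limits low hosts: 3 counts correspond to 0.0979 to 0.130 CPM, and intervals cover counting error only.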

Additional observations from a re-analysis of the deposited data

How the results depend on the processing

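With library sizes in place of TMM, 11 hosts were called higher and 9 lower, and SNHG3 (0.041), SNHG5 (0.18), SNHG6 (0.31), SNHG29 (0.27), SNHG31 (0.12), GAS5 (0.28), SNHG11 (0.45) and SNHG16 (0.47) changed sign on the log2 scale. With isoforms that overlap no other gene, which 18 hosts had in the test, 3 were higher, SNHG7 (0.46) newly so, and 12 lower, and with a log2 fold change beyond 1, 3 were higher and 9 lower. DESeq2 and the replicate block each called 5 higher and 21 lower, no filter 5 and 20, and a minimum of 50 counts 5 and 18. With each library left out in turn 4 to 5 were higher and 14 to 18 lower. Of 344 host values over the alternatives, 288 kept their direction and side of the threshold, 42 lost their call, 3 gained a call in the same direction and 11 changed sign, 4 of these being called in the new direction. With single libraries left out, SNHG11 ran from -0.49 to 0.13, turning positive without naïve 1 (0.037) and without primed 1, and SNHG16 from -0.27 to 0.079, turning positive without primed 2, with no call. Isoform usage had 0 calls under each alternative. The 26 snoRNA share calls became 27 with the replicate block, 20 with at least 50 counts, 24 with the shortest enclosing isoform, 25 with DESeq2 and 22 to 24 without single libraries.

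The replicate numbers were not shown to pair the libraries (correlation 0.059 over genes between the differences of replicate 1 and replicate 2 in the 2 states), and the block changed no call of a host gene. Which scaling is nearer to the cells was not tested, and no spike-in was analysed here. Depth limits SNHG18, SNHG20 and SNHG27 and the snoRNAs under 10 counts.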
